A study of Mus musculus with 12 samples.

Results

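This account follows 10 genes of the blood vessel lining through the first days of chemical colitis in mouse colon. They are chosen by symbol. The adhesion group holds 6 genes: the selectins Selp and Sele, the immunoglobulin-family ligands Vcam1, Icam1 and Madcam1, and the venular chemokine receptor Ackr1. The constitutive group holds 4 genes that mark endothelium at rest: Pecam1, Cdh5, Vwf and Kdr. All 10 were found among the 25904 gene symbols of the deposited table, and all 10 were among the 15246 genes with 1 CPM (read count scaled to library size) or more in at least 3 libraries, which were the genes tested. Sele met that filter only through days 4 and 6, where it was high, so its place among the tested genes is itself part of its change.

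Each library was made from mid-colon tissue, and 3 libraries were made per day. The mice were 7 weeks old and specific-pathogen-free. The strain and sex are not given in the labels. The groups are days 2, 4 and 6 of drinking 3% DSS (dextran sulfate sodium, a polymer that damages the lining of the colon and sets off colitis) and day 0 before it. The labels place no water-drinking mice at days 2, 4 and 6, so DSS and the passage of days cannot be told apart. They do not say that the replicates are separate animals, and p-values here therefore measure sample-to-sample spread, part or all of which may be technical.

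Circulating leukocytes leave the blood mainly through venules. P-selectin and E-selectin on the endothelium catch and roll them, chemokines displayed there activate their integrins, and ICAM-1, VCAM-1 and MAdCAM-1 hold them firmly before they cross the cell junctions. In resting gut, MAdCAM-1 marks the venules that admit lymphocytes bearing integrin α4β7, while the selectins and VCAM-1 are induced on endothelium by cytokines such as tumour necrosis factor and interleukin-1 through the transcription factor NF-kB. PECAM-1, VE-cadherin, von Willebrand factor and VEGF receptor 2 are made by endothelium whether or not it is inflamed.

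Both selectin genes lie together on mouse chromosome 1 in mm10. Sele spans chr1:164048234-164057677 and Selp spans chr1:164115264-164150026, both on the plus strand, so that the pair covers 102 kb. Ackr1 lies further along the same chromosome at chr1:173331886-173333750 on the minus strand. The other 7 genes are dispersed: Vcam1 at chr3:116109949-116129688 (minus), Icam1 at chr9:21015985-21028817 (plus), Madcam1 at chr10:79664559-79668537 (plus), Pecam1 at chr11:106654217-106750628 (minus), Cdh5 at chr8:104101625-104144511 (plus), Vwf at chr6:125546774-125686679 (plus) and Kdr at chr5:75932827-75978458 (minus). Counting units differ in length as well, because the union of annotated exons measures 1405 bases in Ackr1 and 1436 in Madcam1 but 16064 in Vwf. The Ackr1 unit shares 361 exon bases with Cadm3 on the same strand. Depending on counting settings that are not given, reads there could be assigned to either gene, to both or to neither. The Ackr1 values are uncertain to that extent.

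RefSeq start regions (GRCm38.p6, the assembly also called mm10, 250 bases before to 50 bases after the start) were matched for 6 of the 10 genes: Sele, Selp, Ackr1, Icam1, Madcam1 and Kdr. Of these, 4 are shown because they contrast the cytokine-induced adhesion genes Icam1, Madcam1 and Sele with the constitutive marker Kdr. Capitals mark letters that match the NF-kB (kB) consensus or its RelA-type form on either strand, and the TATA box (TATAAA, sense strand).
Icam1 (chr9:21015690-21015989, plus): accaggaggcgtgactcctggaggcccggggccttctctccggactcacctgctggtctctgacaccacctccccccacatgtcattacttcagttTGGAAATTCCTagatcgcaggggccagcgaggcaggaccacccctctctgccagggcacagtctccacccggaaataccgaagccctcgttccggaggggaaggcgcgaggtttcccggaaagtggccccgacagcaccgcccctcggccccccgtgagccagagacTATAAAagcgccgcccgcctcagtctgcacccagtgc
Madcam1 (chr10:79664309-79664608, plus): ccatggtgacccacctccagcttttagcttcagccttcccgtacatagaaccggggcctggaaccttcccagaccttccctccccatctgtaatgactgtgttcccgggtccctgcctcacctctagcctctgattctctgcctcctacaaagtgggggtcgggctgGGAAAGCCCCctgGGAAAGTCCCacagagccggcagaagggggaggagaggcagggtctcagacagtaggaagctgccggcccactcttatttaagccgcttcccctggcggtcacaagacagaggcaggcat
Sele (chr1:164047984-164048283, plus): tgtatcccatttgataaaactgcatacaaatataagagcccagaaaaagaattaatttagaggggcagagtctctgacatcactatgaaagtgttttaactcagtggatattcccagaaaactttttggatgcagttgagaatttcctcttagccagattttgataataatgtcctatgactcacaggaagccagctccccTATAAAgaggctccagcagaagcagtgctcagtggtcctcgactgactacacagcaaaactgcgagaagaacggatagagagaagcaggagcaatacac
Kdr (chr5:75978406-75978705, minus): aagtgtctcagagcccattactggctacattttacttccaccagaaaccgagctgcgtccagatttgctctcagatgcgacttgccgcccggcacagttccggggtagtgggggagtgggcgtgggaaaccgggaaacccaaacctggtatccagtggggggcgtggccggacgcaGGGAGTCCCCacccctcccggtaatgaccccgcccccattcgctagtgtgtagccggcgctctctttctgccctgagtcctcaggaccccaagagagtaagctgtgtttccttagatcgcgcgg

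Icam1 held a RelA-type match beginning at position -154 (the base before the start is -1) that reads on both strands, and a TATA box at position 14. Madcam1 held 2 kB consensus matches, at -83 and -70, both on the opposite strand. Kdr, a constitutive marker, also held a kB consensus match, at -74. Sele held a TATA box at -49 and an AP-1 match (TGANTCA) at -73, and neither kB pattern matched in this window. A kB site with other letters would be missed by these patterns, so the lack of a match does not show that none is present. Of the other matched genes, Selp held an AP-1 match at -139 and Ackr1 a RelA-type match at -132. Among 11736 start regions of tested genes, the kB consensus was present in 5.24%, the RelA-type form in 10.8%, the TATA box in 7.67% and the AP-1 letters in 5.45%. A match is a run of letters in a 300-base window and says nothing of binding.

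**Figure D1:**
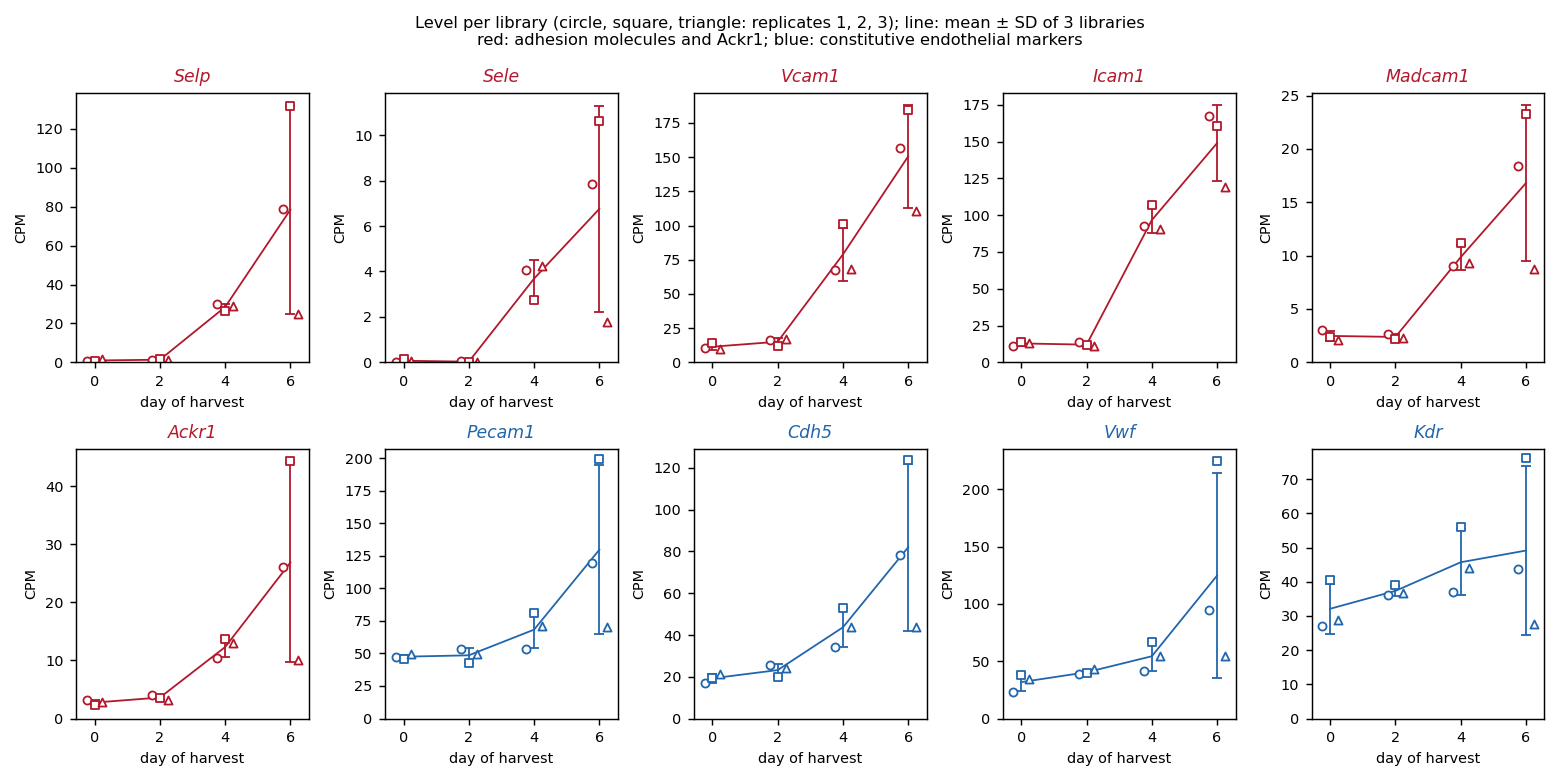
Levels of the 10 genes in CPM (vertical axes, each panel with its own range) by day of harvest (horizontal axes); circles, squares and triangles are replicates 1, 2 and 3 and the line is the mean ± SD of 3 libraries. The 6 red adhesion genes stayed low to day 2 and stood above every day 0 library at days 4 and 6, and the day 6 triangles sit lowest in all 10 panels.

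P-selectin and E-selectin, the rolling receptors, were close to absent before day 4. Selp stood at 0.726, 0.529 and 1.63 CPM in the 3 libraries of day 0, at 1.21, 1.65 and 1.21 at day 2, at 30.1, 26.6 and 28.8 at day 4, and at 79.0, 131.8 and 24.9 at day 6. Every library of days 4 and 6 lay above every library of days 0 and 2, and day 6 replicate 3 lay just below all 3 libraries of day 4. On the log2(CPM + 1) scale, on which all fold changes here are given and which understates the change of low genes, Selp rose by 3.95 ± 0.46 (SE) at day 4 against day 0 (limma adjusted p = 8.52e-05) and by 5.09 ± 0.46 at day 6 against day 0 (adjusted p = 1.03e-05). Mean CPM was 29.6-fold higher at day 4 than at day 0 and 81.8-fold higher at day 6 than at day 0. Every SE and interval here uses a variance per gene that the 4 days share. The median SD as a share of the mean CPM was 53.7% for adhesion genes at day 6, against 13.1% at day 4 and 19.1% at day 0. For constitutive markers it was 50.4%, 21.3% and 17.0%. Intervals for day 6 may therefore be too narrow, and those for day 2 against day 0 too wide.

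Sele was lower throughout. It had 0, 0.125 and 0.0525 CPM at day 0, 0.0503, 0 and 0 at day 2, 4.07, 2.74 and 4.24 at day 4, and 7.88, 10.7 and 1.75 at day 6. In reads summed over 3 libraries this was 6 at day 0, 2 at day 2, 400 at day 4 and 797 at day 6, so days 0 and 2 were near the limit of detection. The pooled level at day 4 was 3.74 CPM (exact Poisson 95% interval 3.39 to 4.13), against 0.0559 CPM at day 0 (0.0205 to 0.122), intervals that cover counting error only. Sele rose by 2.13 ± 0.41 at day 4 (adjusted p = 0.00243) and by 2.64 ± 0.41 at day 6 (adjusted p = 0.000538), each against day 0, and its groups did not overlap. The Sele change depends on the value added before the logarithm, and at day 6 against day 0 it was 3.42 with 0.5 CPM added and 1.13 with 5 CPM added (adjusted p = 0.000208 and 0.0034).

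The firm-adhesion ligands were already detectable at day 0 and rose at day 4. Icam1, which binds the β2 integrins of most leukocytes, had 11.03, 14.1 and 13.4 CPM at day 0, 13.5, 11.6 and 10.9 at day 2, 92.8, 106.6 and 90.6 at day 4, and 167.3, 160.4 and 119.3 at day 6. It was the most even of the 6 between libraries at day 6, each day 6 library lay above each day 4 library, and each day 4 library lay above all of days 0 and 2. Icam1 rose by 2.82 ± 0.16 at day 4 (adjusted p = 6.21e-07) and by 3.43 ± 0.16 at day 6 (adjusted p = 1.28e-07) against day 0.

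Vcam1, the ligand of integrin α4β1, had 10.2, 13.9 and 10.1 CPM at day 0, 16.4, 11.6 and 17.2 at day 2, 67.2, 101.2 and 68.4 at day 4, and 156.8, 184.7 and 110.4 at day 6. As for Icam1, the libraries of day 6 lay above those of day 4 without overlap, and those of day 4 above those of days 0 and 2. Its rise was 2.67 ± 0.23 at day 4 (adjusted p = 1.16e-05) and 3.59 ± 0.23 at day 6 (adjusted p = 9.7e-07) against day 0. Both ICAM-1 and VCAM-1 are also made outside the endothelium, ICAM-1 by leukocytes, fibroblasts and inflamed epithelium and VCAM-1 by stromal cells and some macrophages, and the values of those cell types are given further on.

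Madcam1, the mucosal ligand of integrin α4β7, had 2.99, 2.40 and 2.05 CPM at day 0, 2.69, 2.14 and 2.30 at day 2, 9.02, 11.2 and 9.34 at day 4, and 18.4, 23.2 and 8.79 at day 6. Days 4 and 6 stood above days 0 and 2 in every library, and day 6 replicate 3 lay just under the day 4 values. The gene rose by 1.65 ± 0.28 at day 4 (adjusted p = 0.00118) and by 2.27 ± 0.28 at day 6 (adjusted p = 0.000108) against day 0, the smallest change of the 6 at both days.

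Ackr1 binds chemokines without signalling and carries them across venules. It had 3.12, 2.30 and 2.83 CPM at day 0, 4.05, 3.60 and 3.20 at day 2, 10.4, 13.7 and 12.9 at day 4, and 26.2, 44.3 and 10.2 at day 6. Its day 2 libraries lay just above its day 0 libraries, and its day 4 and day 6 libraries lay above both. It rose by 1.83 ± 0.38 at day 4 (adjusted p = 0.00402) and by 2.68 ± 0.38 at day 6 (adjusted p = 0.0003) against day 0. Cadm3, which shares exon bases with it, stood at 19.2 to 36.8 CPM at day 4 and 21.4 to 75.5 at day 6, against 12.8 to 14.7 at day 0, and the part of that sharing in the Ackr1 values was not tested.

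On the log2(CPM + 1) scale the constitutive markers had smaller fold changes than the adhesion genes at days 4 and 6. Pecam1, the junctional molecule PECAM-1, had 47.2, 46.1 and 49.2 CPM at day 0, 53.7, 42.4 and 49.5 at day 2, 53.1, 80.9 and 70.8 at day 4, and 119.5, 199.2 and 70.3 at day 6. Its day 4 libraries lay above those of day 0, but the fitted difference of 0.49 ± 0.30 did not pass the test (adjusted p = 0.22). At day 6 it was higher than at day 0 by 1.31 ± 0.30 (adjusted p = 0.00554), with replicate 3 no higher than 2 of the day 4 libraries.

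Cdh5, which encodes VE-cadherin, was the only constitutive marker past the test at day 4. It had 17.1, 19.3 and 21.4 CPM at day 0, 25.5, 19.8 and 24.2 at day 2, 34.3, 53.1 and 43.7 at day 4, and 78.3, 123.8 and 44.1 at day 6, with every library of days 4 and 6 above every earlier one. The change was 1.13 ± 0.30 at day 4 (adjusted p = 0.0143) and 1.92 ± 0.30 at day 6 (adjusted p = 0.000542) against day 0. The day 4 call was lost without day 0 replicate 1 or without day 4 replicate 2, with adjusted p between 0.0517 and 0.0599.

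Vwf encodes von Willebrand factor, the clotting protein stored with P-selectin in Weibel-Palade bodies. It had 22.9, 37.8 and 34.7 CPM at day 0, 38.7, 39.6 and 42.8 at day 2, 41.9, 66.8 and 54.5 at day 4, and 94.4, 225.2 and 54.8 at day 6. Its libraries spread widely at day 6, where replicate 2 was far above the others. Vwf stood at 0.76 ± 0.40 at day 4 (adjusted p = 0.165) and was higher by 1.73 ± 0.40 at day 6 (adjusted p = 0.00627) against day 0. Without day 6 replicate 2, the day 4 difference passed (adjusted p = 0.0221).

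Kdr, the main signalling receptor for VEGF-A, had 26.9, 40.5 and 28.9 CPM at day 0, 36.2, 39.1 and 36.6 at day 2, 37.1, 56.0 and 44.0 at day 4, and 43.6, 76.2 and 27.5 at day 6. The days overlapped in every comparison of days 4 and 6 with day 0. It stood at 0.50 ± 0.30 at day 4 (adjusted p = 0.224) and at 0.50 ± 0.30 at day 6 (adjusted p = 0.216, 95% interval -0.16 to 1.16). A rise of up to 1.16 on the log2 scale thus lies within the interval at day 6, which uses the variance shared by the 4 days and may be too narrow. Kdr alone among the 10 did not pass the F test over the 4 days (adjusted p = 0.403), which 43% of all tested genes passed. Without day 6 replicate 3 it was called at day 6 (adjusted p = 0.017).

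Counted together, none of the 10 genes was called at day 2 against day 0, where 0.118% of tested genes were higher and 0.203% lower, and none reached an unadjusted p of 0.05 in limma; edgeR and DESeq2 called none either. The largest difference at day 2 was that of Vcam1, 0.37 ± 0.23 (95% interval -0.14 to 0.88; adjusted p = 0.449). At day 4 against day 0, 6 of 6 adhesion genes and 1 of 4 constitutive markers were higher, against 21.2% of all tested genes. At day 6 against day 0 the counts were 6 of 6 and 3 of 4, against 23.5%. At day 4 against day 2, which shares the day 4 libraries, 6 of 6 and 1 of 4 were higher (Cdh5, adjusted p = 0.0435), against 21%. All 10 were tested without the filter on low values too, with the same counts except that Cdh5 then failed at day 4 against day 2 (adjusted p = 0.0674).

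The raw order of the libraries was counted as well, and against day 0 it set most constitutive markers beside the adhesion genes. All 3 libraries of day 4 lay above all 3 of day 0 for 6 of 6 adhesion genes and 3 of 4 constitutive markers, against 34% of all tested genes, and all 3 of day 6 above all 3 of day 0 for 6 of 6 and 3 of 4, against 26.6%. For day 4 above day 2 the counts were 6 of 6 and 1 of 4, against 34.8%, and for day 6 above day 4 they were 2 of 6 (Vcam1 and Icam1) and 0 of 4, against 9.88%. For day 2 above day 0 they were 1 of 6 (Ackr1) and 1 of 4 (Vwf), against 18.7%.

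On the log2(CPM + 1) scale the fold changes of the adhesion and constitutive groups did not overlap at day 4 or day 6 against day 0. With 5 CPM added in place of 1 they did. Sele then stood at 0.77 at day 4 and 1.13 at day 6, whereas Cdh5 was at least 0.96 and 1.57 under every alternative run. The median log2 fold change of the adhesion genes was 2.40 at day 4 and 3.05 at day 6, against 0.63 and 1.52 for the constitutive markers and 0.13 and 0.14 for all tested genes. At day 4 against day 0 only 0.433% of tested genes had a larger fold change than Selp, 1.19% than Icam1, 1.38% than Vcam1, 2.25% than Sele, 2.98% than Ackr1 and 3.72% than Madcam1, whereas 7.62% exceeded Cdh5, 15.1% Vwf, 25.6% Kdr and 25.9% Pecam1. With 1 CPM added, every adhesion gene lay further up the list than every constitutive marker at both days. At day 6 against day 0 the shares ran between 0.262% for Selp and 3% for Madcam1 in the adhesion group, and between 4.49% for Cdh5 and 26.8% for Kdr in the constitutive group.

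The step between days 4 and 6 was not called for any of the 10 genes at day 6 against day 4, where 1.9% of all genes were higher. It was 0.92 ± 0.23 for Vcam1 (adjusted p = 0.0632), 0.61 ± 0.16 for Icam1 (adjusted p = 0.0651), 1.14 ± 0.46 for Selp (adjusted p = 0.209) and 0.00 for Kdr (adjusted p = 0.997). At an unadjusted p under 0.05, 5 adhesion genes and 3 constitutive markers were higher, against 9.73% of all tested genes. On the recovered whole reads, edgeR called 1 adhesion gene higher, against 2.07% of all genes, and DESeq2 called 3 adhesion genes and 3 constitutive markers higher, against 5.51%. Without replicate 3 of day 6, all 6 adhesion genes and 3 constitutive markers were called, against 9.64% of all genes.

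Day 6 replicate 3 was the lowest day 6 library in 6 of 6 adhesion genes, 4 of 4 constitutive markers and 20 of 20 other endothelial genes, and replicate 2 was the highest in 5, 4 and 20. Day 4 had a milder split, with replicate 2 highest in 4 of 6, 4 of 4 and 18 of 20. At day 6 the summed CPM of 8 epithelial markers was 8252, 4679 and 13549 in replicates 1, 2 and 3, that of fibroblast markers 3799, 5941 and 2498, and that of pericyte markers 806.2, 1943 and 433.5. The library with the most endothelial RNA had the least epithelial RNA and the most stromal RNA, and its part in the day 6 levels was not tested. In whole tissue, more endothelial cells and more RNA per endothelial cell cannot be told apart.

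**Figure D2:**
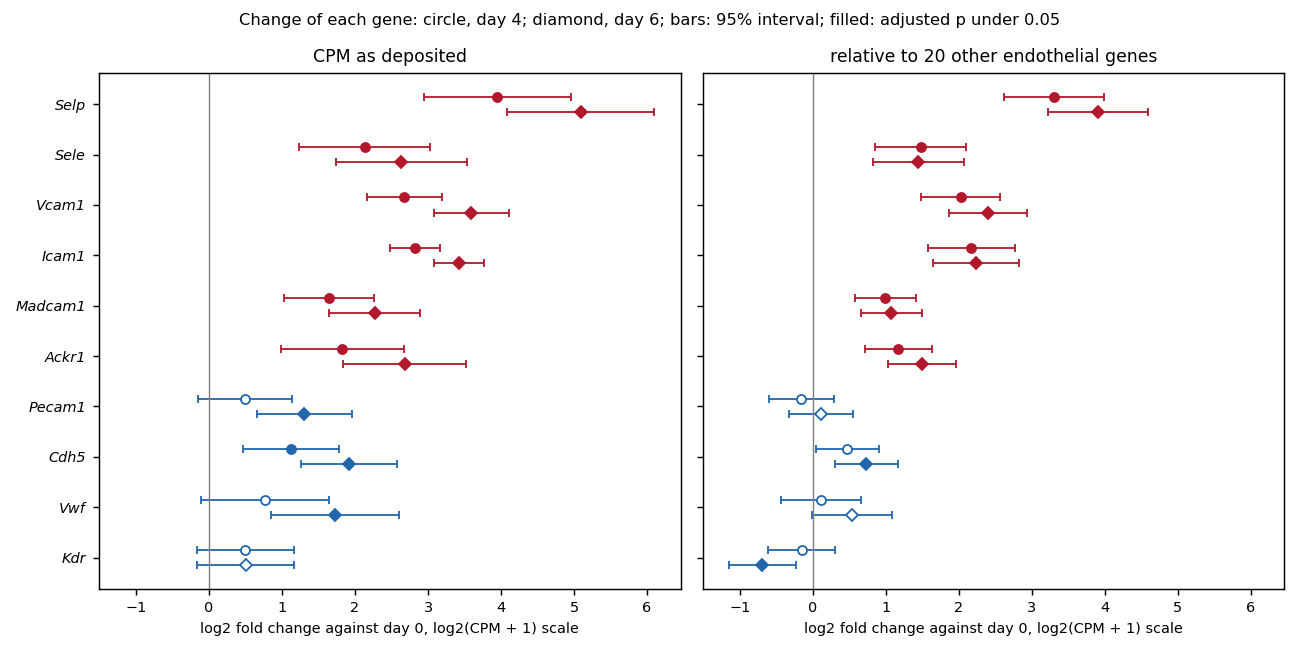
Log2 fold change (horizontal axis, log2(CPM + 1) scale) of each gene (rows) against day 0, in CPM as deposited at left and after subtracting the mean of 20 other endothelial genes at right; circles are day 4, diamonds day 6, bars 95% intervals, and filled symbols had an adjusted p under 0.05. All 6 red adhesion genes are filled in both panels, while of the 4 blue constitutive markers 3 are filled at day 6 at left and Cdh5 and Kdr at right, Kdr below 0.

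To compare the adhesion genes with the vessel lining itself, each gene was set against 20 other endothelial genes by subtracting their mean log2(CPM + 1) in the same library before the fit. This mean lay between 3.51 and 3.63 in day 0 libraries, between 3.69 and 3.83 in day 2 libraries, between 3.91 and 4.49 in day 4 libraries and between 4.01 and 5.47 in day 6 libraries, so the panel itself was higher at days 4 and 6. None of the 10 was called on this scale at day 2 against day 0, where 0.00656% of tested genes were higher. After subtraction all 6 adhesion genes were higher at day 4 against day 0, where 4.47% of tested genes were higher and 22.4% lower, and no constitutive marker was called. Selp rose by 3.30 ± 0.32 relative to the panel (adjusted p = 3.59e-05), Icam1 by 2.17 ± 0.27 (adjusted p = 0.00022), Vcam1 by 2.02 ± 0.25 (adjusted p = 0.000171), Sele by 1.48 ± 0.29 and Madcam1 by 0.99 ± 0.19 (both adjusted p = 0.00342), and Ackr1 by 1.17 ± 0.21 (adjusted p = 0.0024). Pecam1 stood at -0.16 ± 0.20, Kdr at -0.15 ± 0.21, Vwf at 0.11 ± 0.25 and Cdh5 at 0.47 ± 0.20 (adjusted p = 0.093 for Cdh5).

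At day 6 against day 0 all 6 adhesion genes were again higher relative to the panel, where 4.97% of tested genes were higher and 69.9% lower. Because the panel was high, the median gene fell by 1.05 on this scale at day 6 and by 0.52 at day 4, so a called fall means only less than the panel. The relative change at day 6 was 3.90 for Selp, 2.40 for Vcam1, 2.24 for Icam1, 1.49 for Ackr1, 1.44 for Sele and 1.08 for Madcam1. Among the constitutive markers Cdh5 was higher than the panel by 0.73 ± 0.20 (adjusted p = 0.00803), Vwf stood at 0.54 ± 0.25 (adjusted p = 0.068), Pecam1 at 0.11 ± 0.20 (adjusted p = 0.605), and Kdr was lower by a log2 change of -0.69 ± 0.21 (adjusted p = 0.0132). Relative Kdr was 0.70, 0.80 and 0.82 in the 3 libraries of day 6, against 1.25, 1.74 and 1.39 at day 0, with no overlap; the call was lost without day 0 replicate 2 (adjusted p = 0.0557).

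Subtraction narrowed the spread between day 6 libraries in 9 of the 10 genes and widened it in Icam1. The SD at day 6 was 0.31 for relative Ackr1 against 1.02 on the log2(CPM + 1) scale, 0.36 against 0.38 for Vcam1, and 0.53 against 0.26 for Icam1. Relative Ackr1 was -0.02, 0.04 and -0.53 in the 3 libraries of day 6, against -1.51, -1.90 and -1.57 at day 0. Relative Madcam1 was -0.51, -0.87 and -0.72 at day 6, against -1.56, -1.86 and -1.90 at day 0. Replicate 3, the lowest in CPM, was the highest for relative Vcam1 (2.52, 2.07 and 2.79 at day 6) and relative Icam1 (2.61, 1.87 and 2.90 at day 6), and the lowest for relative Selp (1.54, 1.59 and 0.68 at day 6). At day 4 against day 2 all 6 adhesion genes were higher on this scale, where 4.76% of tested genes were higher. At day 6 against day 4 no adhesion gene was called, where 0.387% of tested genes were higher, and 2 were called without day 6 replicate 3. The difference at day 6 against day 4 was 0.07 for Icam1 (95% interval -0.52 to 0.66) and 0.60 for Selp (95% interval -0.08 to 1.29).

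**Figure D3:**
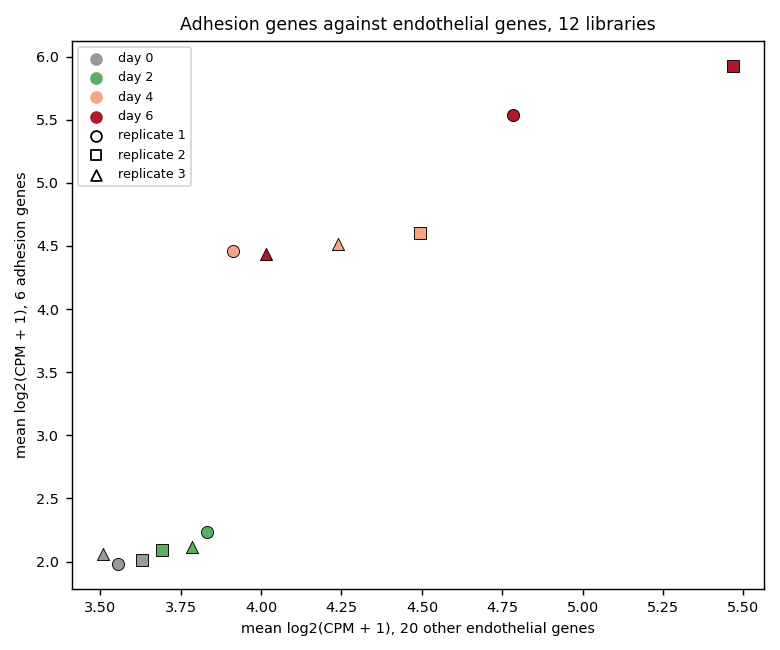
Mean log2(CPM + 1) of the 6 adhesion genes (vertical axis) against that of 20 other endothelial genes (horizontal axis) in the 12 libraries; colour gives the day and shape the replicate. The libraries of days 0 and 2 lie between 1.98 and 2.24 on the vertical axis and those of day 4 between 4.46 and 4.60, and the day 6 triangle lies just below them at 4.44.

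The mean log2(CPM + 1) of the adhesion genes minus that of the constitutive markers lay between -3.12 and -2.80 in day 0 libraries, between -3.14 and -3.02 in day 2 libraries, between -1.41 and -0.93 in day 4 libraries and between -1.25 and -0.78 in day 6 libraries. The gap narrowed between days 2 and 4 and remained in every library, and its ranges at days 4 and 6 overlapped. The mean of the constitutive markers minus that of the panel was 1.43 at day 0, 1.44 at day 2, 1.50 at day 4 and 1.60 at day 6 (means of 3 libraries), an average over markers of which Cdh5 was called higher and Kdr lower than the panel at day 6.

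Levels of different genes were compared per kilobase of annotated exon. At day 0 the mean level was 7.62 CPM per kb for Pecam1, 4.58 for Cdh5, 3.55 for Kdr, 2.95 for Icam1, 1.98 for Vwf, 1.96 for Ackr1, 1.72 for Madcam1, 1.29 for Vcam1, 0.218 for Selp and 0.0203 for Sele. Of neighbours in that order, Cdh5 and Kdr, Kdr and Icam1, and the run of Vwf, Ackr1, Madcam1 and Vcam1 overlapped between libraries. At day 4 Icam1 stood first at 22.2 CPM per kb, clear of Pecam1 at 10.96, followed by Cdh5 at 10.4, Vcam1 at 8.90, Ackr1 at 8.77, Madcam1 at 6.86, Selp at 6.46, Kdr at 5.06, Vwf at 3.38 and Sele at 1.26, and all neighbours between Pecam1 and Vwf overlapped. At day 6 Icam1 was again first at 34.2 and Sele last at 2.32, with Selp at 17.8 beside Pecam1 at 20.8, and every neighbour in the order overlapped with the next. Selp was the fifth in the order at day 6 and the ninth at day 0.

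The leukocyte side of the same contacts was read from 14 counter-receptor genes. At day 4 against day 0, 9 were higher and 1 lower (median log2 fold change 0.85), and at day 6 11 were higher and none lower (median 1.36). The shares of all tested genes beside these and the following lists are from the fit on all 12 libraries. At day 4 against day 0, 21.2% were higher and 12% lower, and at day 6 against day 0, 23.5% and 12.4%. With each library left out in turn, 2263 to 4350 of the 15246 tested genes were higher and 1291 to 2408 lower at day 4. At day 6 against day 0, 2619 to 4655 were higher and 1397 to 2295 lower. The most were higher without day 6 replicate 2 at day 4 and without day 6 replicate 3 at day 6. The β2 integrin genes that pair with ICAM-1 rose, Itgam by 4.01 ± 0.37, Itgb2 by 3.09 ± 0.19 and Itgal by 2.53 ± 0.22 at day 6. Itgae, the integrin of intraepithelial lymphocytes that binds E-cadherin, fell by 0.74 at day 4 (SE 0.21, adjusted p = 0.0171), a call that needed replicates 2 and 3 of day 0 and replicate 3 of day 4, each left out in turn. All 6 pan-leukocyte markers and all 7 neutrophil markers were higher at both days, and all 7 T cell markers at day 6. At day 0 the neutrophil markers summed to only 6.25 to 10.8 CPM and the T cell markers to 8.28 to 13.9. Low members of these 2 lists may have passed the filter only through later days, so those counts may in part be set by it.

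Enzymes that build selectin ligands did not move one way. Of 9 tested, 2 were higher and 3 lower at day 4, and 4 were higher and 4 lower at day 6, each against day 0 (medians 0.15 and 0.51). The count higher at day 4 was 1 to 3 with each library left out in turn. St3gal6 had 34.0, 26.4 and 39.8 CPM at day 6, against 112.1, 158.2 and 136.4 at day 0, and fell by 1.99 (SE 0.22, adjusted p = 4.36e-05). St3gal4 fell by 1.77 and Chst4 by 1.51 at day 6, and Fut4 by 1.23 at day 4. B4galt1, a galactosyltransferase, rose by 1.21 ± 0.16 and Tpst1, a tyrosine sulfotransferase, by 1.03 ± 0.27 at day 6. The summed CPM of 8 epithelial markers was 9118 to 10991 at day 4 and 4679 to 13549 at day 6, against 10313 to 14298 at day 0, and the part of epithelium in these enzymes was not tested. Fut7, which makes the selectin ligand of leukocytes, stayed under 1 CPM in every library and was not tested.

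Of 9 tested cytokine genes able to induce adhesion molecules, 7 were higher at day 4 and 9 at day 6 against day 0 (medians 2.23 and 2.95). All 12 listed genes together summed to 7.44 to 8.56 CPM at day 0. A gene low at days 0 and 2 passes the filter of 1 CPM in 3 libraries only through the days when it is high. These counts are therefore in part set by the filter. Il1b had 89.9, 61.7 and 53.6 CPM at day 4 and 184.0, 111.1 and 81.6 at day 6, against 0.780, 0.872 and 0.525 at day 0, and rose by 6.12 ± 0.28 at day 6 (adjusted p = 1.3e-07). Il6 rose by 3.54 ± 0.30, Il1a by 3.30 ± 0.36 and Tnfsf11 by 3.02 ± 0.35 at day 6. Lta, Il4 and Il13 were below the filter. None of these cytokine genes was called at day 2 against day 0, where only 0.118% of all tested genes were higher and 0.203% lower.

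Of 10 cytokine receptor genes, 8 were higher at day 4 and 7 at day 6 (medians 1.38 and 1.85), among them Osmr, the oncostatin M receptor, by 3.33 ± 0.36, Il4ra by 2.60 ± 0.14, Tnfrsf1b, the second TNF receptor, by 2.25 ± 0.15, and Il6st by 2.05 ± 0.33, all at day 6. Genes of the NF-kB family, their inhibitors and Irf1 rose by smaller steps, 8 of 10 at day 4 and 10 of 10 at day 6 (medians 0.78 and 0.95). Irf1 rose by 1.63 ± 0.25 at day 4, Rel by 1.26 ± 0.32 at day 4, and the inhibitor genes Nfkbia by 1.47 ± 0.27 and Tnfaip3 by 1.26 ± 0.20 at day 6.

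**Figure D4:**
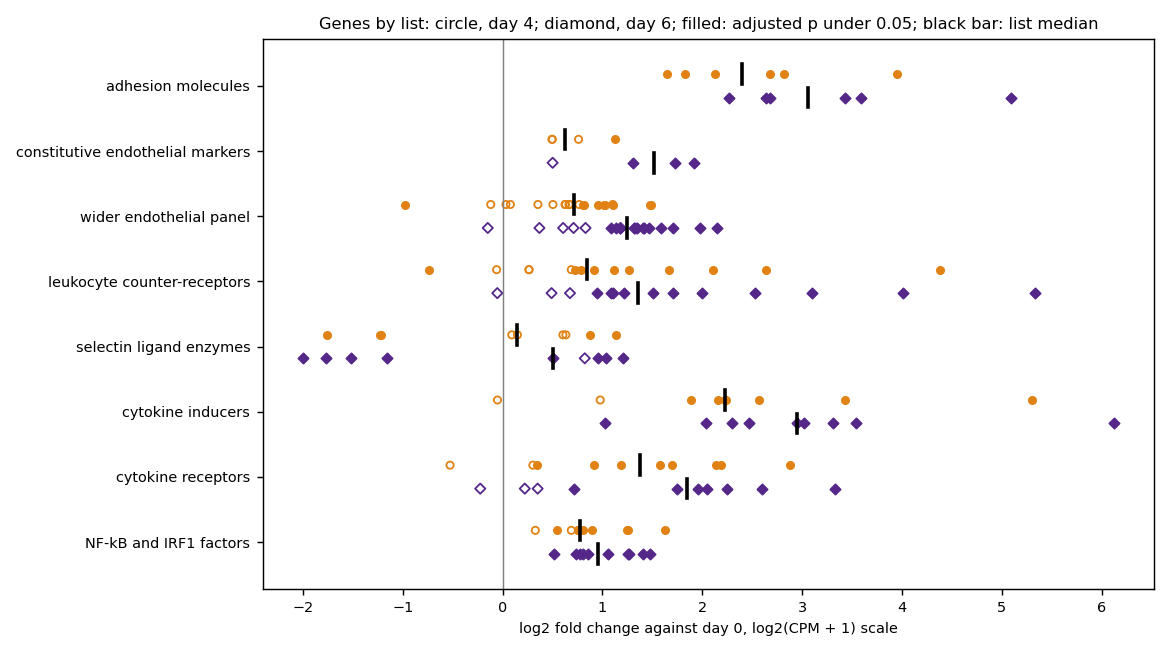
Log2 fold changes against day 0 (horizontal axis, log2(CPM + 1) scale) of the tested genes in 8 lists (rows); circles are day 4, diamonds day 6, filled symbols had an adjusted p under 0.05, and black bars are list medians. The adhesion genes lie between 1.65 and 5.09, all filled, while the selectin ligand enzymes spread between -1.99 and 1.21.

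Among the 20 other endothelial genes, 8 were higher and 1 lower at day 4 (median 0.72), and 14 were higher and none lower at day 6 (median 1.25), each against day 0. Nos3, endothelial nitric oxide synthase, rose by 2.15 ± 0.33, Eng, the TGF-β co-receptor endoglin, by 1.98 ± 0.30 and Rasip1 by 1.70 ± 0.31 at day 6. Clec14a fell by 0.97 at day 4 (SE 0.24, adjusted p = 0.00943), with 8.97, 13.3 and 11.2 CPM at day 4 against 24.2, 18.6 and 25.5 at day 0. The panel's count at day 4 rested on single libraries: 2 were higher when replicate 1 or 3 of day 0 or replicate 2 of day 4 was left out, 3 without day 4 replicate 3, and 13 without day 6 replicate 2. At day 6 it was 12 without day 6 replicate 2, 19 without day 6 replicate 3, and 11 to 19 over all libraries left out. On the log2(CPM + 1) scale the largest panel change was that of Nos3, 1.49 at day 4 and 2.15 at day 6. It lay under the smallest adhesion change, 1.65 and 2.27, both of Madcam1.

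Of 16 junction and transmigration genes, 4 were higher and none lower at each of days 4 and 6 against day 0 (medians 0.43 and 0.48), close to the 21.2% and 23.5% of all tested genes. With each library left out in turn, 2 to 7 were higher at day 4 (7 without day 6 replicate 2) and 4 to 9 at day 6 (9 without day 6 replicate 3). Cd47, the ligand of SIRPα, rose by 1.79 ± 0.13 at day 4, and Esam by 1.41 ± 0.31, Plvap by 1.32 ± 0.28 and Icam2, the constitutive endothelial ICAM, by 1.12 ± 0.24 at day 6. Icam2 had 6.34, 9.74 and 4.95 CPM at day 6, against 2.77, 2.15 and 2.89 at day 0. Icam1 was at 119.3 CPM or more in the same day 6 libraries. The 16 genes summed to 2347 to 2756 CPM at day 0, against 304.5 to 325.5 for the 20 other endothelial genes. The list is not restricted to endothelium, and the part of other cell types in its counts was not tested.

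Other cells that carry these transcripts were read from their own markers. Platelets store P-selectin and von Willebrand factor. Of 10 platelet and megakaryocyte markers 3 were tested. At day 4 against day 0, 1 was higher and 1 (Pf4) lower, and at day 6, 1 was higher (Itga2b, 1.36 ± 0.24). With each library left out in turn, 0 to 1 were higher and 0 to 1 lower at day 4. The summed CPM of all 10 was 8.78 to 11.9 at day 4 and 14.3 to 22.5 at day 6, against 10.1 to 14.1 at day 0. Treml1, a platelet receptor, was at 0 in at least 2 of the 3 libraries of every day. Pf4, platelet factor 4, fell by 1.14 at day 4 against day 0 (SE 0.35, adjusted p = 0.0254). It had 4.80, 8.15 and 2.54 CPM at day 6, against 8.90, 5.73 and 3.88 at day 0. Erythroid cells, which carry the ACKR1 protein in human, had a summed CPM of 6 marker genes of at most 3.98 in any library. Fibroblast markers were higher in 5 of 6 cases at both days, with summed CPM of 1714 to 2943 at day 4 and 2498 to 5941 at day 6, against 973.3 to 1376 at day 0. At day 4 the fibroblast count was 3 without day 0 replicate 1 or day 0 replicate 3, and 1 without day 4 replicate 2. Smooth muscle markers went the other way, with summed CPM of 4072 to 6532 at day 4 and 3021 to 7655 at day 6, against 8254 to 11143 at day 0. Of 7, 3 were lower at day 4 and 4 at day 6 against day 0, and 7 at day 4 against day 2, where 12.9% of all tested genes were lower. With each library left out in turn these counts were 1 to 5, 2 to 7 and 2 to 7. Relative to the endothelial panel all 7 were lower at both days against day 0. On that scale 22.4% of all tested genes were lower at day 4 and 69.9% at day 6. Monocyte and macrophage markers were higher in 5 of 8 at day 4 and 7 of 8 at day 6, with 1 lower at day 4. The part of fibroblasts, macrophages and other leukocytes in the levels of Icam1 and Vcam1 was not tested. Neither was that of leukocytes in the Pecam1 level, nor that of the smooth muscle share in the levels of the 10 genes.

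The 3 genes whose log2(CPM + 1) followed each of the 10 most closely over the 12 libraries differed between them. Selp was most like Steap4 (Pearson r = 0.997), Inhbb and Tnfsf14, and Icam1 was close to Clec5a and Mmp10. Vcam1 was most like Igsf6, Ms4a6d and Bst1 (r = 0.993 to 0.996), Sele like Rab44, Lilra6 and Sgk3 (r = 0.984 to 0.995), Madcam1 like Chil1, Rtn4rl2 and Chrdl2 (r = 0.991 to 0.995), and Ackr1 like Cd200, Sphk1 and Flot1 (r = 0.992 to 0.996). The constitutive genes had other neighbours: Gprc5b, Mxra8 and Acp2 for Pecam1, Lama4, Serpine2 and Vim for Cdh5, Celf2, Tacc1 and Ccdc82 for Vwf, and Nphp4, Abca2 and Snap25 for Kdr, whose closest r was 0.972. These correlations describe 12 libraries that share the 4 days, and many genes rose over the same days.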

How the data were processed

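Mid-colon RNA was sequenced in 12 libraries, 3 for each of days 0, 2, 4 and 6. Per the labels' protocols, poly(A) RNA was selected and libraries were stranded by dUTP. Per the submitters' processing notes, HISAT2 2.2.1 and featureCounts 2.0.1 were used with mm10. The annotation and strand setting, not given in the sources used here, decide how overlapping and antisense genes share reads. The authors deposited CPM for 25904 symbols, with columns summing to 992026 to 998040 CPM. In each library 100% of values lay within 0.1 read of a whole number, which gave 31058912 to 41011005 reads per library. All columns were mapped to a sample.

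The 15246 genes that reached 1 CPM in 3 or more libraries were fitted on log2(CPM + 1) in limma 3.58.1 under R 4.3.3, by day, with trend and robust moderation and Benjamini-Hochberg adjustment over all genes with a threshold of 0.05. A further fit subtracted the mean of 20 other endothelial genes in each library first. The recovered reads were tested with edgeR 4.0.16 and DESeq2 1.42.0 as added checks: edgeR called 2415 genes higher and 2457 lower at day 4 against day 0. The fit was tested on simulated data. Alternatives were other pseudocounts, filters, scalings and moderation, a replicate block, and leaving out each library (for the gene lists, added after seeing the data). Coordinates are from GENCODE M21. The members, the gene lists and the tests were chosen with earlier results of these data known. Named list genes were up to 4 with the largest change at day 4 or 6 past the threshold and up to 2 in the other direction. Pf4 at day 6, Fut7, Lta, Il4 and Il13 were named after their values were seen. Some genes that the naming rules pick are not reported here.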

Additional observations from a re-analysis of the deposited data

How the results depend on the processing

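The counts of adhesion genes called at days 2, 4 and 6 against day 0 and at day 4 against day 2 (0, 6, 6 and 6) were the same under every alternative run, in CPM and relative to the endothelial panel, except that a filter at a mean of 5 CPM left out Sele and gave 5 of 5 at days 4 and 6. The constitutive count at day 4 against day 0 was 1, and 0 to 2 when each library was left out in turn. At day 4 against day 2 it was 1, and 0 with 5 CPM added, with no filter and with quantile normalization, and 0 to 1 when libraries were left out, staying at 1 only when replicate 1 of day 4, or either of replicates 2 and 3 of day 6, was dropped. At day 6 against day 4 the adhesion count was 0, and 2 with 5 CPM added, 1 with median-of-ratios scaling, 1 with edgeR, 3 with DESeq2 and 0 to 6 when libraries were left out, 6 without day 6 replicate 3. The constitutive count there was 0, and 3 with DESeq2 and 0 to 3 when libraries were left out. The relative adhesion count there was 0, and 0 to 2 when libraries were left out. The causes were not tested. Of 1095 alternative fold changes of the 10 genes in CPM, 1060 had the same call, 14 lost it and 21 gained it. No called fold change changed sign, whereas 3 that were not called did so in 12 values, and relative to the panel 11 that were not called did so in 21 values.

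Over all genes, day 2 against day 0 gave 18 higher and 31 lower, against 189 and 357 with DESeq2 and 206 and 351 without day 6 replicate 2. Day 6 against day 4 gave 289 and 145, against 839 and 505 with DESeq2 and 1470 and 780 without day 6 replicate 3. Scaling moved the split of higher to lower calls: day 4 against day 0 gave 3225 and 1833 in CPM but 2431 and 2373 with median-of-ratios scaling, and day 6 against day 0 gave 3585 and 1891 but 2654 and 2508. Whether the replicate numbers pair the libraries was not settled. The correlation of same-numbered deviations ran between -0.212 and 0.636 and was over 0.1 in 7 of 18 pairs. By mean correlation, 7 libraries were closest to their own number. With the replicate number as a block, 3474 genes were higher and 1953 lower at day 4 against day 0, and the counts of the 10 genes were as without it. Below about 1 CPM, depth limits the precision of a fold change. This holds for Sele at days 0 and 2 and for Selp in day 0 replicates 1 and 2 (0.726 and 0.529 CPM).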

Other observations

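Vessel-growth genes were counted beside the adhesion genes. Of 19 VEGF, angiopoietin and apelin genes, 4 were higher and 2 lower at day 4, and 10 were higher and 2 lower at day 6, each against day 0 (medians 0.63 and 0.88). The day 4 count is close to the 21.2% of all tested genes that were higher, and 23.5% were higher and 12.4% lower at day 6. These shares are from the fit on all libraries and hold beside the lists below as well. Angpt2, the angiopoietin that endothelium stores with von Willebrand factor and that loosens vessels, had 22.0, 44.0 and 10.6 CPM at day 6, against 3.15, 2.71 and 4.25 at day 0, and rose by 2.40 ± 0.38 (adjusted p = 0.00059). Its counterpart Angpt1 rose by 2.15 ± 0.40 (adjusted p = 0.00156). Among VEGF receptors, Flt1 rose by 1.59 ± 0.33 at day 6 while Kdr did not pass the test. Vegfb fell by 0.86 (SE 0.16) and Aplnr, the apelin receptor, by 0.57 (SE 0.17) at day 6. The count higher at day 4 was 2 when replicate 1 or 3 of day 0, or replicate 2 or 3 of day 4, was left out, 10 without day 6 replicate 2 and 9 without day 6 replicate 3. At day 6 it was 6 without day 0 replicate 1. Of all 15246 tested genes, 3225 were higher at day 4 in the full fit, 4350 without day 6 replicate 2 and 3807 without day 6 replicate 3.

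Among 13 tested Weibel-Palade body and shear genes, 3 were higher at day 4, and 7 were higher and 2 lower at day 6. Without day 6 replicate 2 or day 6 replicate 3, 5 were higher at day 4. In those fits 4350 and 3807 of all 15246 tested genes were higher at day 4 against day 0. Klf2, the flow-induced factor, had 88.1, 118.2 and 38.8 CPM at day 6, against 11.5, 13.0 and 10.2 at day 0, and rose by 2.58 ± 0.35 (adjusted p = 0.00018). Rab3b fell by 1.10 and Rab27a by 0.56 at day 6. Of 9 venous genes, 7 were higher and 2 lower at day 6. The 7 include Selp, Ackr1, Vwf and Vcam1, which are themselves among the 10 genes followed here. Lrg1 rose by 5.16 ± 0.32 at day 6, while Ephb4 fell by 0.44 at day 4. Of 8 arterial genes 4 were higher at day 6, among them Sema3g by 2.05 ± 0.33 and Gja5 by 1.94 ± 0.29. Of 6 lymphatic genes 3 were higher, Pdpn by 2.25 ± 0.30, Lyve1 by 1.39 ± 0.38 and Flt4 by 1.38 ± 0.39. Of 7 pericyte genes 4 were higher, Kcnj8 by 3.36 ± 0.46 and Abcc9 by 3.14 ± 0.66. Without day 6 replicate 3, all 6 lymphatic and all 7 pericyte genes tested were higher at day 6. In that fit 4655 of all 15246 tested genes were higher at day 6 against day 0. The part of other cell types in the values of these lists, Lrg1 and Pdpn among them, was not tested.

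Cxcl13, the chemokine of lymphoid follicles, where high endothelial venules with MAdCAM-1 are found, had 196.3, 195.1 and 44.2 CPM at day 6, against 2.26, 2.21 and 1.68 at day 0, and rose by 5.31 ± 0.47 (adjusted p = 9.7e-06). The B cell genes Cd79a and Cd79b fell by 1.85 and 1.74 at day 4. The part of follicles caught in a piece of tissue in the Madcam1 values was not tested.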
